A study of Homo sapiens with 7 samples.

Results

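A set of 10 genes of the integrated stress response was followed from transcription to polysomes in the HCT116 colon cancer cell line: ATF4, ATF5, DDIT3, PPP1R15A, PPP1R15B, CEBPG, IBTK, IFRD1, TRIB3 and ASNS. They were taken by symbol from the 20072 genes listed, 8 as mRNAs known for regulatory upstream open reading frames (uORFs) and TRIB3 and ASNS as targets of ATF4. All 10 were found and expressed, where expressed means a mean of at least 1 RPKM (reads scaled by exon length and by library size) in at least 1 of the 3 parameters, as for 14305 genes. The parameters were transcription rate (TR), read by GRO-seq from 2 libraries, mRNA abundance (RA), read by RNA-seq from 3 libraries, and translation activity (TA), read by polysome profiling from 2 libraries. GRO-seq captures RNA made in a nuclear run-on by polymerases already at work on a gene. Polysome profiling captures mRNA from the sucrose gradient fractions that hold several ribosomes per mRNA. Every library came from untreated HCT116, an established human colorectal carcinoma line, in the log phase of growth. No stressor was applied and no library was a stressed control. According to the study's methods the medium held no serum and was supplemented with epidermal growth factor, insulin and transferrin, and the cells for polysome profiling were given cycloheximide, which stops elongating ribosomes, before lysis.

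The integrated stress response starts when one of several kinases phosphorylates the initiation factor eIF2, which slows the loading of initiator tRNA onto ribosomes. Most mRNAs are then translated less, while a few with uORFs are translated more, because scanning ribosomes pass over an inhibitory upstream reading frame and reach the main start. ATF4, made in this way, is a transcription factor that turns on genes for amino acid synthesis and transport, and PPP1R15A and PPP1R15B bring a phosphatase back to eIF2. The members were therefore read here in cells in which the response had not been set off on purpose.

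The leaders of the members show how their uORFs are laid out. In the reference transcripts (1 canonical transcript per gene, GENCODE release 44 on GRCh37, which is hg19), ATF4 on chromosome 22, 39915700 to 39918688, plus strand, had a 5′ leader of 282 bases with 3 upstream AUGs. The first opened a frame of 1 codon and the second one of 3 codons, both closed within the leader. The last opened a frame of 59 codons that ended 83 bases into the coding region, out of frame with it. These starts are shown because they are the elements through which ATF4 is known to be regulated. Each is written 5′ to 3′ with the AUG, written ATG, in capitals.
ATF4 first upstream AUG, chr22:39916582-39916599: cgcccacagATGtagttt
ATF4 second upstream AUG, chr22:39916644-39916661: acggccaccATGgcgtat
ATF4 overlapping upstream AUG, spanning an exon junction: gcttaagccATGgcgctt
ATF4 main AUG, chr22:39917442-39917459: caccgcaacATGaccgaa
The second upstream AUG of ATF4 and the overlapping one both have a purine 3 bases before the AUG and a G right after it, the letters that favour initiation, whereas the main AUG lacks that G.

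ATF5, a close relative of ATF4 on chromosome 19, 50431959 to 50437192, plus strand, had the same plan in a leader of 315 bases. Its first frame, of 3 codons, closed in the leader, and its second, of 59 codons, ended 56 bases into the coding region.
ATF5 first upstream AUG, chr19:50432522-50432539: gccccggccATGgctctg
ATF5 overlapping upstream AUG, spanning an exon junction: gctgcagccATGgagtct
ATF5 main AUG, chr19:50434099-50434116: gctacagccATGtcactc
DDIT3, which encodes the transcription factor CHOP, lies on chromosome 12, 57910371 to 57915520, minus strand, and its leader of 177 bases held 3 upstream AUGs. The first 2 shared a frame of 34 codons that closed 38 bases before the main start, and the last opened a frame of 73 codons that overlapped it.
DDIT3 first upstream AUG, chr12:57914255-57914272: gagcgtatcATGttaaag
DDIT3 main AUG, chr12:57911181-57911198: actgcagagATGgcagct
IFRD1, a transcriptional coregulator on chromosome 7, 112062942 to 112121072, plus strand, had a single frame of 52 codons that closed 43 bases before the main start.
IFRD1 upstream AUG, chr7:112090533-112090550: gagagaaacATGtatcgt
IFRD1 main AUG, chr7:112090735-112090752: cgtcccacgATGccgaag

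The other leaders held closed frames or none. PPP1R15A (chromosome 19, 49375469 to 49379316, plus strand) and PPP1R15B (chromosome 1, 204365620 to 204381015, minus strand), the regulatory subunits that direct protein phosphatase 1 to eIF2, each had 2 upstream AUGs. CEBPG (chromosome 19, 33864591 to 33873592, plus strand), a C/EBP family factor, had 1, with a frame of 1 codon. IBTK (chromosome 6, 82879703 to 82957471, minus strand), named for an inhibitor of Bruton tyrosine kinase, had 5, all closed, in the longest leader of the members at 540 bases. TRIB3 (chromosome 20, 343479 to 378203, plus strand), a pseudokinase, had 2, with frames of 77 and 14 codons. ASNS (chromosome 7, 97480989 to 97501854, minus strand), which makes asparagine, had none in a leader of 117 bases. Among 12979 expressed genes with a readable coding start in the reference, 59.5% had no upstream AUG and 12.4% had 3 or more, but the uORF members were chosen for theirs.

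The library sizes recovered from RPKM were 3391897 and 5629982 reads for TR, 20299018 to 22532134 for RA and 22421062 to 30805391 for TA. The listed genes held 99.7% to 99.8% of these totals, so they are nearly all reads counted on genes. The number of reads sequenced was not recovered. The fewest reads behind any member's value were 136, for ASNS in TR replicate 1. The reads carry no molecular identifiers, so their number covers counting error only. Of 7 epithelial markers, 6 had at least 1 RPKM in every RA library and VIL1 did not, while of 6 markers of other cell types only COL1A1 did, at 10.1 to 13.8 RPKM. The labels do not say whether replicates were separate cultures. The study calls them biological replicates, and the p-values below measure the spread between these libraries. RNA-seq replicate 1 stood apart for the members. Results that rest on RA are therefore also given without it. That choice came from the members' own values. Leaving the library out thus raises their RA, and it narrows the spread of all but ATF5. Calls and adjusted p values without it describe that change and cannot be read as tests of their own.

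Among the regulators with overlapping frames, ATF4 was the most transcribed of the members. In TR it had 266 and 337 RPKM, in RA 174, 317 and 211 RPKM, and in TA 108 and 118 RPKM in the order of the replicates. Both TA libraries lay below every RA library, and every RA library but replicate 2 lay below both TR libraries. ATF5 was listed at 19.9 and 20.5 RPKM in TR, at 11.2, 21.3 and 8.35 RPKM in RA, and at 12.6 and 6.18 RPKM in TA. TA replicate 1 lay within the range of its RA libraries and TA replicate 2 below all of them, and both TR libraries lay above both TA libraries. DDIT3 had 59.1 and 111 RPKM in TR, 30.4, 358 and 306 RPKM in RA, and 127 and 190 RPKM in TA. RNA-seq replicate 1 was the lowest of all 7 libraries for DDIT3 and the other RA libraries were the highest, an 11.8-fold range within RA.

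The phosphatase subunits differed in how much their RA libraries varied. PPP1R15A, the stress-induced subunit also called GADD34, had 111 and 136 RPKM in TR, 29.9, 159 and 70.6 RPKM in RA, and 82.9 and 44.3 RPKM in TA. PPP1R15B, the constitutive subunit, had 43.8 and 52.4 RPKM in TR, 31.9, 53.4 and 50.8 RPKM in RA, and 30.1 and 22.5 RPKM in TA. The RA range was 5.32-fold for PPP1R15A and 1.67-fold for PPP1R15B. In both, TA lay below TR in every library.

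CEBPG, which pairs with ATF4, had 21.7 and 20.5 RPKM in TR, 21.3, 65.9 and 44.3 RPKM in RA, and 24.5 and 23.1 RPKM in TA. Its RNA-seq replicate 1 lay between the TR libraries, and the other RA libraries lay above all TR and TA libraries. IBTK had 11.4 and 10.7 RPKM in TR, 11.6, 18.7 and 18.8 RPKM in RA, and 10.5 and 6.84 RPKM in TA. IFRD1 had 26.4 and 34.2 RPKM in TR, 10.8, 53.3 and 32.5 RPKM in RA, and 41.4 and 22.2 RPKM in TA. RNA-seq replicate 1 was again the lowest of the 7 libraries for IFRD1, and its 3 parameters overlapped.

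For the ATF4 targets TRIB3 and ASNS, both TA libraries lay above both TR libraries, as they also did for DDIT3 and CEBPG. How many of all genes share this order was not counted. TRIB3, which binds ATF4 and dampens it, had 19.3 and 22.9 RPKM in TR, 20.5, 181 and 94.98 RPKM in RA, and 106 and 62.2 RPKM in TA. ASNS, asparagine synthetase, had 15.9 and 25.9 RPKM in TR, 33.1, 209 and 127 RPKM in RA, and 381 and 196 RPKM in TA. For ASNS every RA library lay above both TR libraries, and RNA-seq replicate 1 was the lowest RA library by far.

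**Figure D1:**
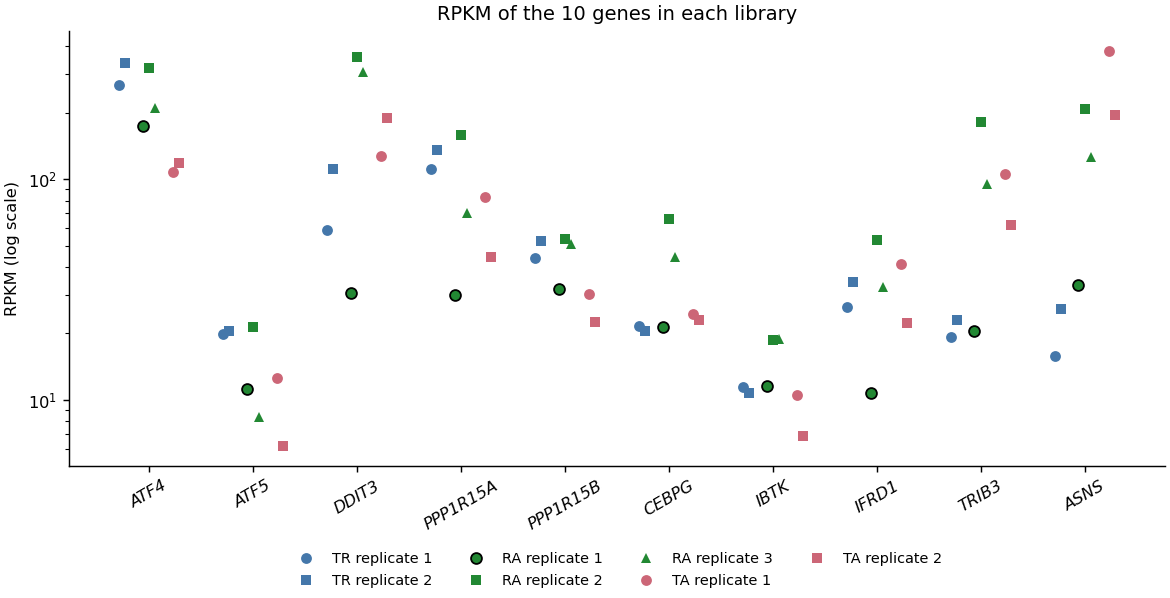
RPKM of each of the 10 genes (x axis) on a log scale (y axis), with 1 point per library, colour for the parameter and shape for the replicate, and RNA-seq replicate 1 ringed in black. The ringed point is the lowest RA point of every gene except ATF5, where RNA-seq replicate 3 is lower at 8.35 RPKM.

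Because RPKM is scaled by exon length, the levels can be ordered within a parameter. In TR the order was ATF4 (mean 301 RPKM), PPP1R15A (123), DDIT3 (84.9), PPP1R15B (48.1) and IFRD1 (30.3), none of which overlapped its neighbour over the libraries. CEBPG (21.1), TRIB3 (21.1), ASNS (20.9) and ATF5 (20.2) followed and could not be told apart, and IBTK was lowest at a mean of 11.0 RPKM. In RA ATF4 (mean 234 RPKM) and DDIT3 (231) led and ATF5 was last (13.6), but every neighbouring pair overlapped. In TA ASNS (mean 288 RPKM), DDIT3 (159) and ATF4 (113) led without overlap, followed by TRIB3 (84.0) and PPP1R15A (63.6), which overlapped each other. IFRD1 (31.8), PPP1R15B (26.3) and CEBPG (23.8) came next and overlapped as neighbours, and ATF5 (9.39) and IBTK (8.67) were last and overlapped. ASNS thus went from the eighth place in TR to the first in TA, and ATF4 from the first to the third.

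The RA replicates differed widely for most of these genes. On the log2(RPKM + 0.1) scale, all 10 members were lower in RNA-seq replicate 1 than in replicate 2, with a median difference of -1.96 where all expressed genes had 0.00. Differences were -3.55 for DDIT3, -3.13 for TRIB3, -2.65 for ASNS, -2.41 for PPP1R15A, -2.30 for IFRD1 and -1.62 for CEBPG. ATF5 (-0.92), ATF4 (-0.87), PPP1R15B (-0.74) and IBTK (-0.68) differed less. The central 95% of all genes ran from -1.32 to 1.57, so the first 6 lay below it and the last 4 within it. Against RNA-seq replicate 3, which shares replicate 1 with the first difference, 9 of the 10 were lower, from -3.33 for DDIT3 to -0.28 for ATF4, and ATF5 was higher by 0.42. No test across groups applies to a single library. Fewer cells in a state and less RNA per cell cannot be told apart in bulk RNA.

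RNA-seq replicates 2 and 3 also differed, with 9 of the 10 higher in replicate 2 and a median difference of 0.65. Of all 14305 expressed genes 7068 were higher in replicate 2, with a median of 0.00. ATF5 (1.34) and PPP1R15A (1.17) lay above the upper end, 0.95, of the central 95% of all genes. In TA the members' median difference between polysome profiling replicates 1 and 2 was 0.69. Of the 10, 8 were higher in replicate 1, and DDIT3 (-0.58) and ATF4 (-0.13) were lower. Of all 14305 expressed genes 6774 were higher in that library, with a median of 0.00. Between GRO-seq replicates 1 and 2 the members' median was -0.27, where all expressed genes had -0.04. DDIT3 (-0.90) and ASNS (-0.70) were the furthest from 0. By replicate number, ASNS was lower in replicate 1 of RA and of TR and higher in replicate 1 of TA, while DDIT3 and ATF4 were lower in replicate 1 of all 3 assays.

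Other known ATF4 targets were also low in RNA-seq replicate 1. Of its 30 expressed genes, 24 were lower in RNA-seq replicate 1 than in replicate 2 (median -1.03) and 26 were lower than in replicate 3 (median -0.75), and 16 and 10 of them by more than 1 log2 unit. Of all 14305 expressed genes 6884 were lower in the first of these pairs of libraries and 6548 in the second. By more than 1 log2 unit 772 and 372 were lower. The share that differed by more than 1 log2 unit in either direction was 12.5% in the first pair and 5.52% in the second. The 9 eIF2 kinases and their regulators had medians of -0.14 and -0.09 in the same differences. The 11 subunits of eIF2, eIF2B and protein phosphatase 1 had -0.24 and 0.05, and 16 other mRNAs described as carrying uORFs had 0.10 and -0.03. Epithelial markers were also somewhat lower, with medians of -0.30 and -0.32 for 7 genes and a summed level of 1909 RPKM in replicate 1 against 2558 and 2546 RPKM, and their part in the result was not tested.

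**Figure D2:**
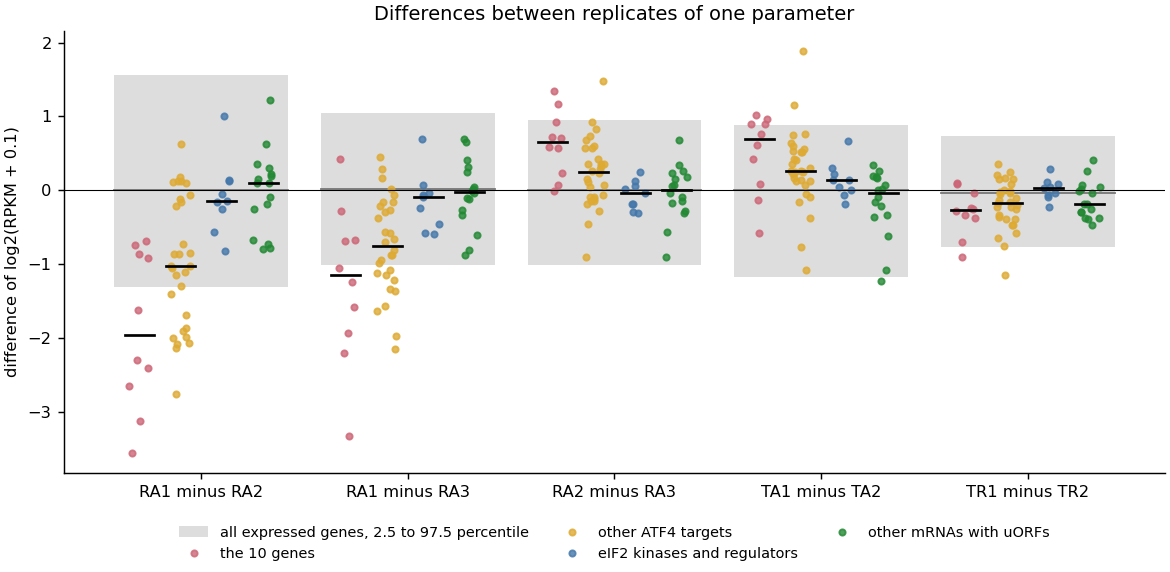
Difference of log2(RPKM + 0.1) between 2 libraries of 1 parameter (y axis) for each pair of replicates (x axis), with 1 point per gene in 4 lists, a black bar at each list's median and a grey band for the central 95% of all expressed genes. The 10 genes have medians of -1.96 and -1.14 in the pairs with RNA-seq replicate 1 and the other ATF4 targets -1.03 and -0.75, while the eIF2 kinases and the other mRNAs with uORFs lie near 0.

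The stability index, log2(RA/TR), sets the mRNA present against its transcription. ASNS was the only member called higher in RA than in TR, at 2.23 (standard error 0.70) or 4.71-fold (limma, Benjamini-Hochberg adjusted p = 0.0219 over all genes), and every RA library lay above every TR library. None was called lower. Across all genes 19.2% were called higher and 48% lower, beside 1 and 0 of the 10 members. The members' median index was 0.21 and that of all genes -0.58. A gene could count as expressed through TR alone, and a low RA goes with passing in that way. When TR, RA and TA each had to reach 1 RPKM, fewer genes were tested and 3656 were called lower instead of 6870. The members stayed at 1 higher and 0 lower. The 48% and the -0.58 thus partly reflect the filter, as do the later shares of all genes called lower against TR. Because RPKM is relative, the zero point is a matter of scaling, and centring each library on its median raised every stability index by 0.67. It then took 4 members above the threshold (CEBPG, IBTK, TRIB3 and ASNS) with 35.4% of all genes called higher and 33.7% lower, and turned the sign of ATF4, PPP1R15B and IFRD1, none of which was called.

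RNA-seq replicate 1 was singled out because most members were low in it, so leaving it out raises this index by that choice. Without it, 5 members were called higher in RA than in TR, with 19.5% of all genes called higher. None was called lower, with 48.7% of all genes. ASNS was at 2.998 (adjusted p = 0.000596), TRIB3 at 2.63 (adjusted p = 0.000632), DDIT3 at 2.03 (adjusted p = 0.00174), CEBPG at 1.35 (adjusted p = 0.00124) and IBTK at 0.76 (adjusted p = 0.0224), all by limma. With all libraries the same indices were 1.75 for TRIB3, 0.88 for DDIT3, 0.91 for CEBPG and 0.53 for IBTK, with adjusted p values of 0.0770, 0.441, 0.0781 and 0.124. ATF4 had an index of -0.40 with all libraries (95% interval -1.07 to 0.27) and ATF5 -0.68 (-1.65 to 0.29). PPP1R15A had -0.82 (-2.24 to 0.60), PPP1R15B -0.11 (-0.72 to 0.49) and IFRD1 -0.18 (-1.56 to 1.21). None of these was called with or without RNA-seq replicate 1. Leaving out RNA-seq replicate 2 instead brought ATF4 (-0.64), ATF5 (-1.05) and PPP1R15A (-1.42) under the threshold as lower, and the ASNS call was lost without either GRO-seq library or without RNA-seq replicate 3.

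The translation index, log2(TA/RA), sets polysomal mRNA against mRNA present. ATF4 was called lower in TA than in RA at -1.003 (standard error 0.29, adjusted p = 0.0301, limma) and IBTK at -0.91 (standard error 0.28, adjusted p = 0.0366). PPP1R15B was close to the threshold at -0.76 (adjusted p = 0.0526). In these 3 genes every TA library lay below every RA library. No member was called higher. Among all genes 29.2% were called lower and 6.66% higher, and the median index was -0.37, close to the members' median of -0.35. Relative to that median ATF4 was at -0.63, and centring each library raised every translation index by 0.50, after which no member was called in either direction, beside 19% of all genes called higher and 9.81% lower. Centring turned the sign of PPP1R15A, which was not called. The ATF4 call was lost without either GRO-seq library, either polysome library or RNA-seq replicate 3 and with only the 2 parameters compared (adjusted p = 0.0630), and the IBTK call on leaving out any library other than RNA-seq replicate 1, with only the 2 parameters compared (adjusted p = 0.0924) and with no filter on low values (adjusted p = 0.0542).

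ASNS had the highest translation index of the members at 1.51, above 99.9% of all genes, but its RA libraries spread over 6.31-fold and the 95% interval ran from -0.11 to 3.13 (adjusted p = 0.128). TRIB3 was at 0.20 (-1.59 to 1.99), IFRD1 at 0.19 (-1.20 to 1.58) and DDIT3 at 0.06 (-2.16 to 2.28). PPP1R15A was at -0.20 (-1.61 to 1.22), ATF5 at -0.51 (-1.48 to 0.46) and CEBPG at -0.74 (-1.67 to 0.20). These intervals are wide, and neither a rise nor a fall of 1 log2 unit lies outside those of TRIB3, IFRD1, DDIT3 and PPP1R15A.

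Leaving out RNA-seq replicate 1 moved the translation index of every member down, which follows from how that library was chosen. The fit without it called 5 of the 8 uORF members lower and neither TRIB3 nor ASNS. Of all genes 29.6% were called lower and 7.2% higher. By limma ATF4 was at -1.19 (adjusted p = 0.0162), CEBPG at -1.18 (adjusted p = 0.00918), IBTK at -1.14 (adjusted p = 0.0122), DDIT3 at -1.09 (adjusted p = 0.0475) and PPP1R15B at -0.996 (adjusted p = 0.0118). DDIT3 turned from 0.06 to that value, RNA-seq replicate 1 being at 30.4 RPKM beside 358 and 306 RPKM. TRIB3, whose leader also holds 2 upstream AUGs, was at -0.69 (adjusted p = 0.179, limma) and not called. It lay below the uORF members ATF5 at -0.59 and IFRD1 at -0.46, which were not called either. ASNS was at 0.75 (adjusted p = 0.193).

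**Figure D3:**
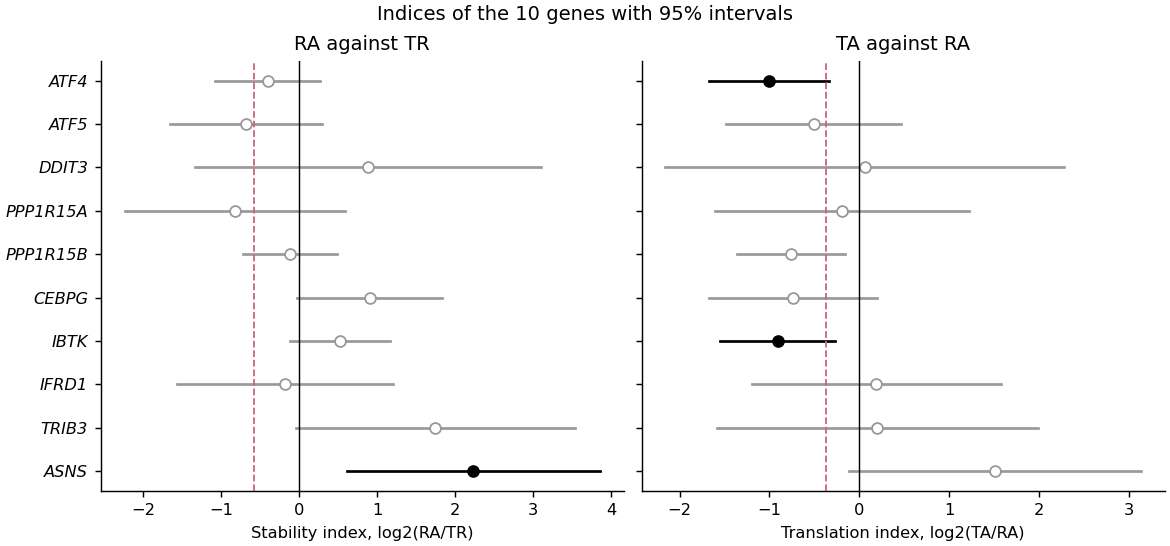
Stability index (left, log2(RA/TR)) and translation index (right, log2(TA/RA)) of the 10 genes from limma with all 7 libraries, with lines for 95% intervals, filled black points for adjusted p under 0.05 and open grey points otherwise. The dashed line is the median of all expressed genes, -0.58 and -0.37, and ASNS in the left panel and ATF4 and IBTK in the right panel are filled.

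From transcription to polysomes, which shares its libraries with both indices, ASNS was 3.74 higher in TA than in TR (standard error 0.77, adjusted p = 0.00239, limma), or 13.4-fold. ATF4 (-1.40, adjusted p = 0.00393), ATF5 (-1.19, adjusted p = 0.0448) and PPP1R15B (-0.88, adjusted p = 0.0225) were called lower. Of all genes 17% were called higher and 57.5% lower, and the median was -1.08, relative to which these 3 genes were at -0.33, -0.11 and 0.20. That share and that median include genes that passed the filter through TR alone. When TR, RA and TA each had to reach 1 RPKM, 4935 genes were called lower instead of 8231. The ASNS call was lost without GRO-seq replicate 1 (adjusted p = 0.0509). The ATF5 call was lost with limma-voom (adjusted p = 0.0643), with no filter on low values (adjusted p = 0.0621) and without either GRO-seq library, polysome replicate 2 or RNA-seq replicate 1. That of PPP1R15B was lost without either GRO-seq library or polysome replicate 2. Centring each library raised the differences by 1.17, called CEBPG, IBTK, TRIB3 and ASNS higher and none lower (38% and 35.3% of all genes), and turned PPP1R15B to 0.30, IBTK to 0.80 and PPP1R15A from -1.02 to 0.16. TRIB3 had 1.94 (adjusted p = 0.0670, limma), DDIT3 0.94 (adjusted p = 0.437) and CEBPG 0.17 (adjusted p = 0.738). In each of them every TA library lay above every TR library. RNA-seq replicate 1 enters only through the shared estimate of spread. Without it, TRIB3 (adjusted p = 0.00212, limma) and DDIT3 (adjusted p = 0.0399) were called higher and ATF5 was no longer called lower (adjusted p = 0.0563). Of all genes 18.2% were then called higher and 59.2% lower. The differences did not move, and the narrower spread of TRIB3 and DDIT3 follows from the choice of the library left out.

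The kinases that start the response and their regulators were measured in all 9 cases. In RA against TR 5 were called higher and 1 lower, beside 19.2% and 48% of all genes, and in TA against RA 0 higher and 4 lower, beside 6.66% and 29.2%. EIF2AK1, the haem-regulated kinase, had the highest stability index at 1.19 (adjusted p = 0.000312, limma), and KIAA0141, the older symbol of the mitochondrial stress messenger DELE1, the lowest at -1.28 (adjusted p = 0.000160). EIF2AK4, the kinase that senses uncharged tRNA, had the lowest translation index at -1.08 (adjusted p = 0.00419), and EIF2AK1 was also called lower at -0.55 (adjusted p = 0.0340). The EIF2AK1 translation call was lost on centring (adjusted p = 0.845) and without RNA-seq replicate 1 (adjusted p = 0.0512). After centring, 2 of the 9 were called higher and 1 lower in TA against RA, beside 19% and 9.81% of all genes.

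Subunits of eIF2, of its exchange factor eIF2B and of protein phosphatase 1 numbered 11. Of these 6 were called higher and 2 lower in RA against TR (19.2% and 48% of all genes), and 3 higher and 1 lower in TA against RA (6.66% and 29.2%). With each library centred the counts were 6 and 0 in both comparisons. Of all genes 35.4% were then called higher and 33.7% lower in RA against TR, and 19% and 9.81% in TA against RA. PPP1CC, a catalytic subunit of the phosphatase, had the highest stability index at 2.09 (adjusted p = 3.15e-05, limma) and the lowest translation index at -0.96 (adjusted p = 0.00875), a call lost on centring (-0.45, adjusted p = 0.111). EIF2B2 had the highest translation index at 0.90 (adjusted p = 0.00873), and EIF2B4 the lowest stability index at -0.57 (adjusted p = 0.0345), which centring turned to 0.11. Without RNA-seq replicate 1 the counts in RA against TR were 6 higher and 0 lower, beside 19.5% and 48.7% of all genes. The EIF2B4 call was then lost (adjusted p = 0.0668, limma).

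Of 31 other ATF4 targets 30 were expressed, NUPR1 not among them, and 8 were called higher and 7 lower in RA against TR, beside 19.2% and 48% of all genes, with a median of 0.42. Centring made these counts 16 higher and 4 lower, beside 35.4% and 33.7% of all genes. In TA against RA it made them 8 and 1, beside 19% and 9.81%. PSAT1, of serine synthesis, had the highest stability index at 2.20 (adjusted p = 0.000513, limma). VLDLR was the lowest, at a mean of 2.80 RPKM in TR and 0.0309 in RA. It and INHBE (9.64 RPKM in TR, 0.658 in RA), also called lower, passed as expressed through TR alone. A lower RA thus went with the filter for these genes. In TA against RA 6 were called higher and 1 lower, beside 6.66% and 29.2% of all genes, with a median of 0.30, where the members had -0.35. GDF15, a secreted stress cytokine, was highest at 1.54 (adjusted p = 0.0117) and PSPH, also of serine synthesis, lowest at -1.45 (adjusted p = 0.00561). Without RNA-seq replicate 1, 15 of the 30 were called higher and 7 lower in RA against TR, beside 19.5% and 48.7% of all genes. The median translation index was then -0.09.

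The 16 other mRNAs described as carrying uORFs share CEBPB and SLC7A1 with the list of ATF4 targets. In TA against RA 0 were called higher and 9 lower, beside 6.66% and 29.2% of all genes, with a median of -0.71. Of the 15 with a reference transcript, 13 had an upstream AUG in it. CEBPB and CDKN1B, the latter among the 9, had none there. Without RNA-seq replicate 1 the counts were also 0 and 9 (7.2% and 29.6% of all genes), with CDKN1B no longer called (adjusted p = 0.0514, limma) and PRKCH called (adjusted p = 0.0265). ODC1, the first enzyme of polyamine synthesis, was lowest at -1.53 (adjusted p = 0.00311, limma), and AZIN1, which binds its antizyme, was the least low of the 9 at -0.69 (adjusted p = 0.0168). In RA against TR 3 were called higher and 8 lower, beside 19.2% and 48% of all genes. These calls ran from EPRS, a tRNA synthetase, at 2.24 (adjusted p = 0.000120, limma) to CEBPA at -2.74 (adjusted p = 2.39e-05). After centring 5 were called higher and 3 lower, beside 35.4% and 33.7% of all genes. In TA against RA centring left 1 called higher and 2 called lower, beside 19% and 9.81%. Most of the lower calls in TA against RA thus rest on the zero point, and over all genes they fell from 29.2% to 9.81%.

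Across all genes the translation index was lower the more upstream AUGs the reference leader held. Its median was -0.12 for 7726 genes with none, -0.54 for 2488 with 1, -0.72 for 1161 with 2 and -0.83 for 1604 with 3 or more. TA below RA was called for 18.5%, 36.1%, 47.8% and 52.2% of them. Leaders also lengthened along these groups, from a median of 87 to 428 bases, and the stability index was lower, from a median of -0.39 to -0.87. Their part in the result was not tested. The annotated transcript need not be the one that HCT116 makes.

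Set against genes with as many upstream AUGs, ATF4 (-1.003) and IBTK (-0.91) lay between the quartiles of -1.21 and -0.38 for 3 or more, and DDIT3 (0.06) above them. PPP1R15B (-0.76) and ATF5 (-0.51) lay between the quartiles for 2, which were -1.16 and -0.26, while PPP1R15A (-0.20) and TRIB3 (0.20) lay above them. CEBPG (-0.74) lay between the quartiles for 1, of -1.001 and -0.09, and IFRD1 (0.19) above. ASNS (1.51), with none, lay above the upper quartile of 0.34. Without RNA-seq replicate 1 the indices of DDIT3 (-1.09), PPP1R15A (-0.80), TRIB3 (-0.69) and IFRD1 (-0.46) lay within those same ranges of the fit with all libraries, and ASNS (0.75) stayed above its range. CEBPG (-1.18) then lay below its range.

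**Figure D4:**
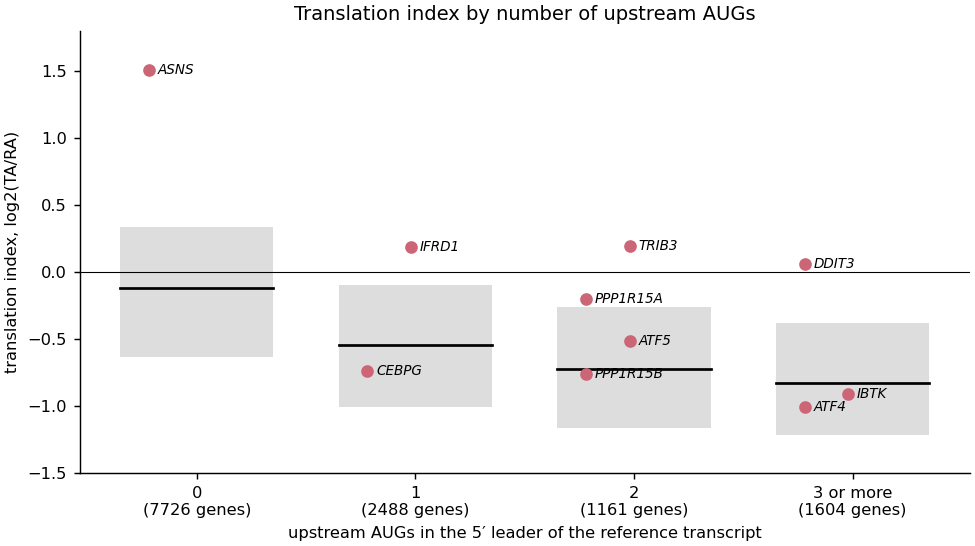
Translation index, log2(TA/RA) (y axis), by the number of upstream AUGs in the reference leader (x axis), with grey boxes from the lower to the upper quartile of all expressed genes in each group, a black line at the median and red points for the 10 genes. The medians run from -0.12 with no upstream AUG to -0.83 with 3 or more, and ASNS, IFRD1, TRIB3, PPP1R15A and DDIT3 lie above the boxes.

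ATF4 binds together with C/EBP proteins to a composite element, and the letters TGATGNAAN were searched on both strands of RefSeq promoters (GRCh38.p14, 250 bases before to 50 after each gene start). Of the members, 4 held them in at least 1 promoter, on the strand of the gene. They stood in 3.61% of all 35116 promoters given, in 2.03% of the 15308 of expressed genes and in 4 of the members' 21. For the other ATF4 targets it was 6 of 31. The matches are shown for their position near the start, with the motif in capitals and coordinates on GRCh38.p14.
ASNS, chr7:97872462-97872482: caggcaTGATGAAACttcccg
CEBPG, chr19:33374065-33374085: ggcgtcTGATGCAACctgccg
PPP1R15B, chr1:204412030-204412050: cccggcTGATGCAACctcacg
IFRD1, chr7:112452070-112452090: ccatgtTGATGAAATtcattc
A match is a description of letters. The members with a match differed from each other in RA, since the RNA-seq range was 6.31-fold in ASNS and 1.67-fold in PPP1R15B.

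The genes nearest to 3 of the members over all 7 libraries, by Euclidean distance on log2(RPKM + 0.1), were taken as a description. Any gene has nearest genes, and the distance also reflects the level, so how common a pattern is was not measured. For ATF4 they were EEF1A1 (distance 0.70), C6orf48, H3F3B, RPL13 and PHLDA1 (1.22). EEF1A1, the elongation factor that brings tRNA to ribosomes, was at 130, 274 and 181 RPKM in RA and 103 and 97.1 RPKM in TA, which is the order of ATF4's RA libraries too. For IFRD1 they were PMM2 (1.08), RPAIN, CRELD1, ARHGEF2 and NFKBIL1 (1.29). For ASNS they were CD55 (1.39), RSL24D1, ANXA3, GARS and PDIA6 (1.65). CD55, a complement regulator at the cell surface, was at 27.6, 126 and 90.8 RPKM in RA and at 229 and 156 RPKM in TA.

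Some reads of the members could belong to other genes. On the reference annotation DDIT3 shares 219 of the 903 bases of its transcript with MARS1 on the opposite strand, and ATF5 shares 196 of 2007 bases with NUP62, also on the opposite strand. No strand setting of the counting is given in the sources used here. ATF4 and ASNS have processed pseudogenes, and an overlapping non-coding gene on the same strand covers 2374 of the 2385 bases of the ASNS transcript. IFRD1 shares 1742 of 3269 bases with an unnamed protein-coding gene on its strand, and PPP1R15B 453 of 5259 with a non-coding one on the opposite strand. The values of these 6 genes are uncertain to that extent.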

How the data were processed

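TR, RA and TA were measured in log-phase HCT116 cells by GRO-seq (2 libraries), RNA-seq (3) and polysome profiling (2), and samples were grouped by the assay in their labels. The authors mapped reads to hg19 with TopHat at default settings, counted the reads on exons with HTSeq and deposited the counts as RPKM, per gene and per library. The annotation, counting mode and strand setting are not given in the sources used here, and 4 samples shared a lane, which are not named. Reads and library sizes were recovered from RPKM: 100% of values above 0 gave whole reads within a tolerance of 0.0001. The listed genes held 99.7% to 99.8% of each recovered library size, which is thus not the number of reads sequenced.

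Values of log2(RPKM + 0.1) from all 7 libraries were fitted together, without a block, by limma 3.58.1 (R 4.3.3, eBayes with trend). The fit covered the 14305 genes whose mean reached 1 RPKM in some parameter, and p-values were adjusted over them by Benjamini-Hochberg at 0.05. Fold changes are on that scale. Other values came from Python 3.11.15 with numpy 2.4.6 and pandas 2.3.3, and plots from matplotlib 3.10.9. The scripts were tested on simulated data. A reference transcript with a readable coding start was found for 12979 of the genes (90.7%) in GENCODE release 44 on GRCh37, matched by symbol or older symbol.

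The members and lists were chosen with earlier results of these data known. All 10 members are named, and from each other list the genes with the highest and lowest index past the threshold. For ATF4, IFRD1 and ASNS the 5 nearest genes are also named. Alternatives covered pseudocounts of 0.01 and 1, filters on low values, centring of each library, only the parameters compared, limma-voom on the recovered reads, a replicate block and each library left out.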

Additional observations from a re-analysis of the deposited data

How the results depend on the processing

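In RA against TR, the number of members called higher was 1, went to 4 with each library centred on its median and to 0 with the replicate block, and ranged from 0 to 5 on leaving out 1 library, while those called lower ranged from 0 to 3. In TA against RA, 2 members were called lower, 1 with no filter on low values, 0 with centring, 0 with only the compared parameters and 0 with the replicate block, and 0 to 5 on leaving out 1 library, while those called higher ranged from 0 to 1. In TA against TR, 1 member was called higher, 4 with centring and 3 with only the compared parameters, and 0 to 3 on leaving out 1 library, and 3 were called lower, 0 with centring, 1 with the block, and 1 to 3 on leaving out 1 library. Over all genes, centring gave 5066 genes higher in RA against TR (2743 without it), 2713 higher and 1404 lower in TA against RA (953 and 4173), and 5436 higher and 5044 lower in TA against TR (2439 and 8231). With at least 1 RPKM in each parameter, which tests fewer genes, 3656 were lower in RA against TR (6870) and 4935 lower in TA against TR. Leaving out 1 library ranged the TA against RA counts over all genes from 198 to 1030 higher and from 1803 to 4228 lower. DDIT3 ranged from -1.09 (without RNA-seq replicate 1, reversed) to 0.69 in TA against RA, and in TA against TR centring reversed IBTK to 0.80 and PPP1R15B to 0.30. The cause was not tested.

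Replicate numbers mark no shared culture in the labels. Replicate 1 minus replicate 2 correlated across 10825 genes at -0.56 between RA and TA, 0.15 between RA and TR and 0.02 between TA and TR. The replicate block left 109 genes higher and 1387 lower in TA against RA, with the calls of ASNS (2.03, adjusted p = 0.0762, limma) in RA against TR, of ATF4 (adjusted p = 0.0757) and IBTK (adjusted p = 0.168) in TA against RA, and of ATF5 (adjusted p = 0.0642) and PPP1R15B (adjusted p = 0.0515) in TA against TR lost. The crossed pairing, chosen after seeing the data, called 680 genes higher and 3542 lower, and 1 member higher and 1 lower.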

Other observations

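Genes beyond the members separated RNA-seq replicate 1 from the other RA libraries. They were chosen here after their values were seen, as those with the largest difference to both and a mean of at least 8 RPKM in RA. Lower in it were SPRR2D, a cornified envelope protein, at 0.867 RPKM against 45.8 and 23.5 RPKM, and HERPUD1, of endoplasmic reticulum protein quality control, at 60.8 against 257 and 262 RPKM. ATF3, an ATF4 target and stress-response factor, was at 21.3 against 90.9 and 84.2 RPKM, and CHAC1, which degrades glutathione, at 4.71 against 32.3 and 21.3 RPKM. GADD45B was at 17.8 against 58.8 and 57.2 RPKM.

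Higher in RNA-seq replicate 1, among others and picked in the same way, were several genes known from DNA synthesis. HSPA1B, which is not one of these, held place 1 on that side at 84.6 RPKM against 16.0 and 16.9 RPKM. RRM2, a subunit of ribonucleotide reductase, was at 195 RPKM against 18.8 and 69.2 RPKM, FEN1, a flap endonuclease, at 72.0 against 10.2 and 18.5, MCM4, of the replicative helicase, at 71.2 against 9.59 and 27.0, and GINS2 at 49.97 against 7.18 and 13.6 RPKM. IFI6, an interferon-induced gene, was at 324 against 56.7 and 94.8 RPKM and OAS3 at 68.7 against 6.55 and 18.0 RPKM. In TA the lower of the libraries for RRM2, FEN1, MCM4 and GINS2 was replicate 1, with RRM2 at 19.6 RPKM against 89.8 RPKM in replicate 2. No label separates these libraries by culture, density or day.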
